A study of Homo sapiens with 4 samples.

Results

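Small loops inside 1 gene are pairs of chromatin anchors no more than 90 kb apart whose whole span, from the outer edge of the left anchor to the outer edge of the right one, lies within the body of 1 protein-coding gene. They were taken from the loop lists of 4 Hi-C libraries by a rule on size and place, which was set with earlier results of these data known. The 4 lists held 3143 distinct small loops inside 1 gene among 52058 distinct loops. Hi-C ligates pieces of DNA that lie close together in the nucleus, so that each sequenced pair counts 1 contact. All libraries came from wild-type MDA-MB-231 cells, an established human line of triple negative breast cancer. Of these, 2 were treated with vehicle (DMSO) and 2 with 75 nM THZ1, an inhibitor of the kinase CDK7, and all were collected at 48 h. GEO's series text calls the 2 libraries of each condition technical replicates, while the study's methods describe treatment in duplicate, and whether the cultures were separate is not settled. The p-values thus measure only the spread between these libraries, which may be technical. Contacts come from a whole cell population, and fewer cells that hold a loop cannot be told apart from fewer contacts per cell.

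Chromatin loops form when a ring-shaped motor, cohesin in interphase or condensin in mitosis, draws in DNA until it is released or stopped. CTCF, a DNA-binding protein, is the best known stop for cohesin, and the anchors of large interphase loops often hold CTCF motifs that point toward each other. Condensin is thought to fold large loops into smaller nested ones. CDK7 phosphorylates the tail of RNA polymerase II near gene starts and activates the cyclin-dependent kinases of the cell cycle. The study used Hi-C to ask how loss of CDK7 activity affects the folding of chromatin, and the loops described here are those that lie within single gene bodies.

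Few of the small loops inside 1 gene carried the pair of facing CTCF motifs that is known from large loops. A strict match to the core motif of CTCF, searched on both strands of GRCh37, was present in 1.87% of all 5 kb bins and 3.68% of all 10 kb bins of the genome. A match on the plus strand was present in 0.953% of 5 kb bins. By this strict match, facing pairs were rare in all loops too, at 1.97% and 1.83% with vehicle against 3.01% and 3.23% with THZ1. Among small loops inside 1 gene they were present in 0.631% and 0.611% with vehicle against 1.203% and 0.459% with THZ1. Over the 4 lists, 14 distinct small loops inside 1 gene had a match on the plus strand in the left anchor and on the minus strand in the right anchor, and 3 of these were called with the same anchors in all 4 libraries. These 3 lay in GRAMD1B, which moves cholesterol between membranes, in SLC2A3, the glucose transporter GLUT3, and in DUS2, which modifies transfer RNA. The matches in GRAMD1B and SLC2A3 are printed as examples of the arrangement that most small loops inside 1 gene lacked. The capitals mark the match to the core motif, and each sequence is read on the strand of its motif, plus for the left anchors and minus for the right ones.
GRAMD1B left anchor: tcatcctggCCACCAGAGGGCattaggaac
GRAMD1B right anchor, first match: ggagaaagtCCAGCAGAGGGCactaacaga
GRAMD1B right anchor, second match: caagtttacCCACTAGATGGCactgtagac
SLC2A3 left anchor: ctgaaaatcCCAGTAGGTGGCagcaccgat
SLC2A3 right anchor: agcagttggCCACCAGGTGGCagtgtatat
In GRCh37 the GRAMD1B sequences lie at chr11:123278253-123278282, chr11:123346410-123346439 and chr11:123349284-123349313, and the SLC2A3 sequences lie at chr12:8085923-8085952 and chr12:8147988-8148017. All 5 are intronic and overlap no annotated exon. The loops in GRAMD1B, SLC2A3 and DUS2 lie inside these genes only with all annotated transcripts counted, and none of the 3 is inside the canonical transcript.

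The loop in GRAMD1B spans chr11:123275001-123350000 and had a strength, the log2 ratio of observed contacts to those expected from the donut-shaped neighborhood of the pixel, of 2.45 and 2.45 with vehicle against 2.52 and 2.17 with THZ1. Its conditions overlapped. The loop in SLC2A3 spans chr12:8085001-8150000, and its strength was 2.76 and 2.62 with vehicle against 2.64 and 2.09 with THZ1, which also overlapped. The loop in DUS2 spans chr16:68025001-68075000, and its strength was 3.04 and 3.31 with vehicle against 2.11 and 2.87 with THZ1. All 3 missed the threshold of an adjusted p of 0.05 in the edgeR quasi-likelihood test across shared loops, with adjusted p-values of 0.850, 0.353 and 0.0687.

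The number of small loops inside 1 gene was about 2-fold higher with vehicle than with THZ1. The vehicle libraries held 1427 and 1638 of them, and the THZ1 libraries held 831 and 653. Both vehicle counts lay above both THZ1 counts. The means were 1532.5 ± 149 (SD, n = 2) and 742 ± 126 (SD, n = 2), a 2.07-fold difference. The exact two-sided permutation test gave p = 0.333, the smallest that 2 libraries against 2 allow, and the same limit holds for every comparison of library values reported here. The difference was smaller in lists of equal length. All loops numbered 20768 and 24219 with vehicle against 17222 and 15066 with THZ1. When each list was cut to its 15066 strongest loops, the means were 754.5 and 641.5. The log2 ratio of THZ1 to vehicle was then -0.23 in place of -1.05. Small loops inside 1 gene were weaker than other small loops and than larger loops inside 1 gene in each library. A cut by strength removes more of them from the longer vehicle lists, so it cannot isolate the part of list length. They made up 6.87% and 6.76% of all loops with vehicle against 4.83% and 4.33% with THZ1, a log2 ratio of -0.57. Read totals are not in the lists, so the part of sequencing depth in these numbers was not tested.

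Loops of 90 kb or less outside this class showed a similar difference. They numbered 6313 and 7272 with vehicle against 3682 and 3193 with THZ1, a 1.98-fold difference of the means. Small loops inside 1 gene made up 18.4% and 18.4% of all small loops with vehicle against 18.4% and 17.0% with THZ1. Counting error alone, as a 95% Wilson interval, allowed 17.6% to 19.3% for vehicle replicate 1 and 15.8% to 18.2% for THZ1 replicate 2. The conditions overlapped in this share (exact permutation p = 0.667). Loops over 90 kb inside 1 gene numbered 642 and 786 with vehicle against 567 and 488 with THZ1, 1.35-fold apart.

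Within the class, as among other small loops, the ratio was highest for the shortest loops. Loops of 35 to 40 kb numbered 514 and 602 with vehicle against 294 and 198 with THZ1, 2.27-fold apart. Loops of 70 to 90 kb numbered 308 and 352 with vehicle against 206 and 175 with THZ1, 1.73-fold apart. The SD of the log2 ratio was 0.43 for the shortest and 0.22 for the longest group, so the gap between these ratios is within the spread between libraries. Among other small loops the conditions were 2.44-fold apart at 35 to 40 kb and 1.70-fold apart at 70 to 90 kb. The median size of small loops inside 1 gene was 50 kb in every library. Around the limit, loops of exactly 90 kb inside 1 gene numbered 65 and 62 with vehicle against 41 and 32 with THZ1, and those of exactly 95 kb, just outside it, 29 and 44 with vehicle against 12 and 8 with THZ1.

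**Figure D1:**
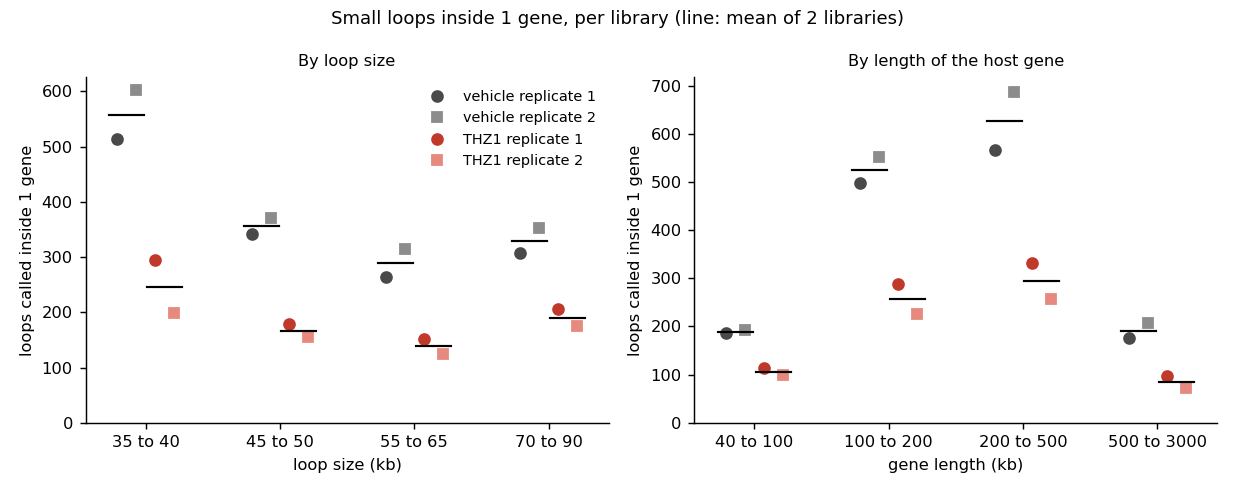
Number of small loops inside 1 gene (y axis, starting at 0) by loop size in kb (left) and by length of the host gene in kb (right), with 1 point per library and a line at the mean of 2 libraries. In each of the 8 classes both vehicle points lie above both THZ1 points, from 514 and 602 against 294 and 198 for loops of 35 to 40 kb to 176 and 207 against 98 and 72 for genes over 500 kb.

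Small loops were fewer with THZ1 in genes of every length class, by 1.79-fold in the shortest to 2.25-fold in the longest. Of 20098 protein-coding genes, 7985 were at least as long as 40 kb, the smallest span of such a loop. Genes over 40 and up to 100 kb held 186 and 193 small loops with vehicle against 113 and 99 with THZ1, 1.79-fold apart. Genes over 100 and up to 200 kb held 498 and 551 against 288 and 225, 2.04-fold apart. Genes over 200 and up to 500 kb held 567 and 687 against 332 and 257, 2.13-fold apart, and genes over 500 kb held 176 and 207 against 98 and 72, 2.25-fold apart. The order of these folds is within their spread, since the SD of the log2 ratio ran from 0.14 to 0.36.

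The median length of the host gene, taken over loops, was 208 and 219 kb with vehicle against 207 and 202 kb with THZ1. The highest THZ1 value and the lowest vehicle value differed by less than the spread between the vehicle libraries. Taken over host genes, each counted once, the median was 174 and 178 kb with vehicle against 180 and 179 kb with THZ1, the opposite order. Genes over 200 kb held 52.1% and 54.6% of the small loops with vehicle against 51.7% and 50.4% with THZ1 (exact permutation p = 0.333). With the canonical transcript as the gene body, a choice added after the data were seen, the mean of the median length was 212 kb with vehicle and 214 kb with THZ1, so the direction turned. Density per length was highest in the middle of the range. In vehicle replicate 2, genes over 100 and up to 200 kb held 1.84 small loops per Mb and genes over 200 and up to 500 kb held 1.93 per Mb, while shorter genes held 0.706 per Mb and longer genes 0.764 per Mb.

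Fewer genes hosted a small loop with THZ1, and those that did held fewer each. Host genes numbered 948 and 1034 with vehicle against 629 and 523 with THZ1, 1.72-fold apart. In lists cut to the same number of loops, the means were 597.5 and 519.5, a log2 ratio of THZ1 to vehicle of -0.20 in place of -0.78. Each held on average 1.51 and 1.58 small loops with vehicle against 1.32 and 1.25 with THZ1. Genes with 3 or more small loops numbered 116 and 152 with vehicle against 42 and 26 with THZ1, 3.94-fold apart. Both measures can fall with the number of loops in a list, and neither was computed in lists cut to the same number. In all, 1378 genes hosted a small loop in at least 1 library, 327 of them in all 4 libraries, 191 in both vehicle libraries only and 9 in both THZ1 libraries only.

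In genes with several small loops, the loops often joined end to end. A loop was counted as joined where the midpoint of 1 of its anchors lay within 5 kb of that of the opposite anchor of another small loop of the same gene. Joined loops numbered 371 and 508 with vehicle against 136 and 77 with THZ1, or 26.0% and 31.0% against 16.4% and 11.8% of the small loops inside 1 gene. Neither condition overlapped the other (exact permutation p = 0.333). The share with vehicle was lower in lists cut to the same number of strongest loops, a choice added after the data were seen. It was then 14.6% and 11.9% with vehicle against 10.8% and 11.8% with THZ1.

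ROR1, which encodes a receptor of the WNT pathway with a tyrosine kinase-like domain, held such a chain. The gene lies at chr1:64239688-64647181 on the plus strand, and it held 9 and 7 small loops with vehicle against 0 and 2 with THZ1. In vehicle replicate 2, 4 loops followed one another from the gene start, at chr1:64240001-64295000, chr1:64290001-64345000, chr1:64340001-64385000 and chr1:64385001-64440000. Their strengths were 1.66, 2.24, 1.99 and 1.98. In vehicle replicate 1 the second of these had the same anchors and a strength of 2.13. The 2 loops called in THZ1 replicate 2, at chr1:64340001-64390000 and chr1:64470001-64510000, had strengths of 1.29 and 1.24. Both were also called with these anchors in vehicle replicate 1, at 1.07 and 1.80, so that the first was weaker there than with THZ1. The second was called in vehicle replicate 2 as well, at 2.31.

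AOPEP, which encodes an aminopeptidase, had a chain in all 4 libraries. The gene lies at chr9:97488886-97914075 on the plus strand and held 6 and 7 small loops with vehicle against 7 and 5 with THZ1, the highest average of any gene. Its loop at chr9:97630001-97680000 had a strength of 2.60 and 2.85 with vehicle and 2.13 in THZ1 replicate 1, with 61, 92 and 63 observed contacts. THZ1 replicate 2 called a loop from the same left anchor to chr9:97685000 with a strength of 1.75 and 44 contacts. The number of loops in AOPEP thus overlapped between conditions, while both vehicle strengths of this loop lay above both THZ1 strengths.

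**Figure D2:**
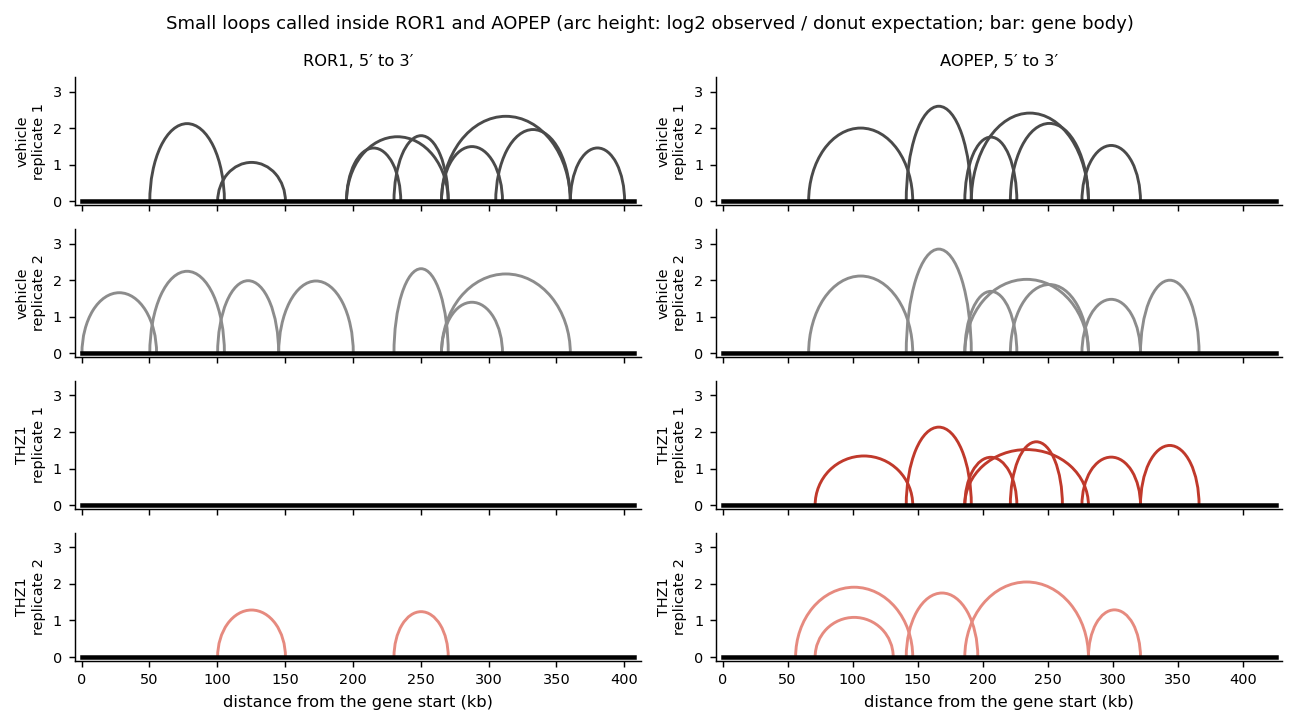
Small loops called inside ROR1 (left) and AOPEP (right) in each library, with the distance from the gene start in kb on the x axis, 1 arc per loop from outer edge to outer edge, the height of the arc as strength in log2 of observed over donut expectation, and the gene body as a bar. ROR1 shows 9 and 7 arcs with vehicle against 0 and 2 with THZ1, and AOPEP shows 6 and 7 with vehicle against 7 and 5 with THZ1.

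The other genes with the most small loops varied as widely. DST, which encodes a linker of the cytoskeleton, held 6 and 9 with vehicle against 3 and 3 with THZ1. RUNX1, a transcription factor of blood development, held 7 and 9 against 2 and 2, but within its canonical transcript it held 2 and 3 against 1 and 1. PALLD, an actin-binding scaffold, held 5 and 8 against 2 and 1, and FRMD4A, a scaffold of cell polarity, held 6 and 7 against 2 and 1. RAD51B, of the homologous recombination machinery, held 5 and 8 against 3 and 2, and within its canonical transcript 2 and 4 against 2 and 0, where the conditions met. TMEM241, a transmembrane protein, held 4 and 8 against 1 and 3, and within its canonical transcript 3 and 4 against 0 and 1. PRKAG2, a regulatory subunit of AMP-activated protein kinase, held 6 and 6 against 5 and 4, and SAMD4A, an RNA-binding repressor of translation, held 4 and 5 against 4 and 3. AOPEP and SAMD4A were the genes among these 10 whose conditions overlapped or met in number. The other 8 had both vehicle counts above both THZ1 counts over the whole gene.

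Over all genes, 308 had both vehicle counts above both THZ1 counts, or 3.86% of the 7985 genes long enough to host a loop, and 10 had both THZ1 counts above both vehicle counts, or 0.125%. Among genes hosting in both vehicle libraries and neither THZ1 library, ARHGEF12, a guanine nucleotide exchange factor, held 3 and 3 small loops with vehicle. KCNQ1, a potassium channel, also held 3 and 3. AKAP13, which anchors protein kinase A, held 3 and 2. PDZD2, a PDZ domain protein, held 2 and 4, VOPP1 held 3 and 2, and ENSG00000284686 held 2 and 3. ZNF385D, a zinc finger protein, held 2 and 3. ATG5, of the autophagy machinery, held 3 and 2, of which 0 and 1 lay within its canonical transcript.

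Genes hosting in both THZ1 libraries and neither vehicle library held 1 small loop in each. They included NRP2, a co-receptor for semaphorins and VEGF, CBR4, a carbonyl reductase, PLXDC1, and ENSG00000255730. Of these 4, the loops of NRP2 alone lay within the canonical transcript. The others of the 9 were RAP1A, TGFB2, USP3, WDFY2 and ZSCAN5A, chosen for naming after their counts were seen. PALD1 held 1 and 1 with vehicle against 2 and 3 with THZ1 and completes the 10 genes with higher THZ1 counts.

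Gene lists chosen for this cell type and drug hosted small loops at different rates. None of them held a gene with both THZ1 counts above both vehicle counts, against 10 of all 7985 genes long enough (0.125%). Of 32 long enough genes of growth factor receptors and RAS, MAPK and PI3K signalling, 40.6% and 40.6% hosted a small loop with vehicle against 28.1% and 28.1% with THZ1. Over all genes long enough, the shares were 11.9% and 12.9% with vehicle against 7.88% and 6.55% with THZ1. PRKCA, protein kinase C alpha, held 3 and 3 with vehicle against 2 and 2 with THZ1, IGF1R, a growth factor receptor, held 3 and 2 against 0 and 1, and RPTOR, a subunit of mTOR complex 1, held 1 and 4 against 0 and 1. In this list 3 genes had both vehicle counts above both THZ1 counts, all among the 15 that hosted in any library. Over all genes long enough, 308 of 7985 (3.86%) were higher with vehicle, all among the 1378 that hosted in any library. The median gene length of the list was 134 kb, against 90.9 kb over all genes long enough, and the part of length in these shares was not tested.

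Of 35 chromatin and transcription regulators, 34.3% and 42.9% hosted with vehicle against 28.6% and 22.9% with THZ1. Of the 17 that hosted in any library, 4 were higher with vehicle, against 308 of 1378 over all genes. RUNX1 led this list, and NFIA, a transcription factor, held 2 and 5 with vehicle against 1 and 2 with THZ1, and within its canonical transcript 1 and 2 in both conditions. Of 29 mesenchymal, matrix and adhesion genes, 24.1% and 34.5% hosted with vehicle against 17.2% and 17.2% with THZ1. Here 4 of the 11 that hosted in any library were higher with vehicle. TNS3, a focal adhesion protein, held 2 and 1 against 0 and 0, and COL4A2, a basement membrane collagen, held 2 and 2 against 2 and 1.

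Counted over any library, the other lists hosted small loops at shares near that of all genes, of which 1378 of 7985 (17.3%) hosted. Per library, all genes hosted at 11.9% and 12.9% with vehicle against 7.88% and 6.55% with THZ1. Of 14 luminal epithelial genes, 3 hosted in any library (21.4%), 7.14% and 14.3% with vehicle against 7.14% and 7.14% with THZ1. Among them were CDH1, the epithelial cadherin, with 1 and 0 with vehicle and none with THZ1, and BCL2, an inhibitor of apoptosis, with 0 and 1. Of 30 long neuronal genes, with a median length of 1263 kb, 5 hosted in any library (16.7%), 3.33% and 13.3% with vehicle against 6.67% and 6.67% with THZ1. Genes over 500 kb hosted at 26.6% and 28.5% with vehicle against 18.9% and 15.8% with THZ1, above this list in each library. NRG1, a ligand of ERBB receptors, held 4 and 4 against 3 and 2, all of them outside its canonical transcript, and DPP6, a potassium channel subunit, held 0 and 1 against 0 and 0. Of 17 genes of condensin, cohesin, CTCF and CDK7, 3 hosted in any library (17.6%) and 0 were higher in either condition, where 3.86% of all genes were higher with vehicle. Per library, 0% and 5.88% of this list hosted with vehicle against 5.88% and 5.88% with THZ1. NCAPG2, a condensin II subunit, held 1 in vehicle replicate 2 alone, and MNAT1, the assembly factor of the CDK7 complex, held 1 in THZ1 replicate 2 alone.

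The fold difference between conditions was smaller for small loops near the 5′ end of the gene body than for those deeper in it. A loop was called near the gene start where its outer edge lay within 10 kb of the 5′ end of the host gene. Such loops numbered 266 and 259 with vehicle against 175 and 159 with THZ1, 1.57-fold apart. Loops near neither end numbered 1058 and 1254 with vehicle against 596 and 448 with THZ1, 2.21-fold apart, and those near the gene end 123 and 154 against 79 and 63, 1.95-fold apart. The share near the start was therefore 18.6% and 15.8% with vehicle against 21.1% and 24.3% with THZ1. The 95% Wilson intervals of vehicle replicate 1, from 16.7% to 20.7%, and THZ1 replicate 1, from 18.4% to 24.0%, overlapped. The conditions did not overlap and differed by 5.48 percentage points (exact permutation p = 0.333), against an SD of 2.00 points with vehicle and 2.33 points with THZ1. An anchor held a transcript start of the host gene in 388 and 423 small loops with vehicle against 241 and 192 with THZ1. These were 1.87-fold apart, against 2.07-fold for the whole class. Their share was 27.2% and 25.8% with vehicle against 29.0% and 29.4% with THZ1.

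The share near the start was higher with THZ1 in shorter and longer genes alike. In genes up to 200 kb it was 31.4% and 27.4% with vehicle against 34.7% and 40.7% with THZ1, and in genes over 200 kb it was 6.86% and 6.15% against 8.37% and 8.21%. Loops of vehicle replicate 1 were also looked up in the other lists, at both anchors within 10 kb. Of the 266 near the start, 66.2% recurred in vehicle replicate 2, and 47.4% and 39.5% did so in the first and second THZ1 lists. Of the 1058 near neither end, 63.7%, 36.96% and 29.3% recurred, and the difference between the places was not tested. Median strength was 1.92 and 1.93 near the start and 1.90 and 1.86 near neither end with vehicle, and 1.57 and 1.65 against 1.58 and 1.59 with THZ1.

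**Figure D3:**
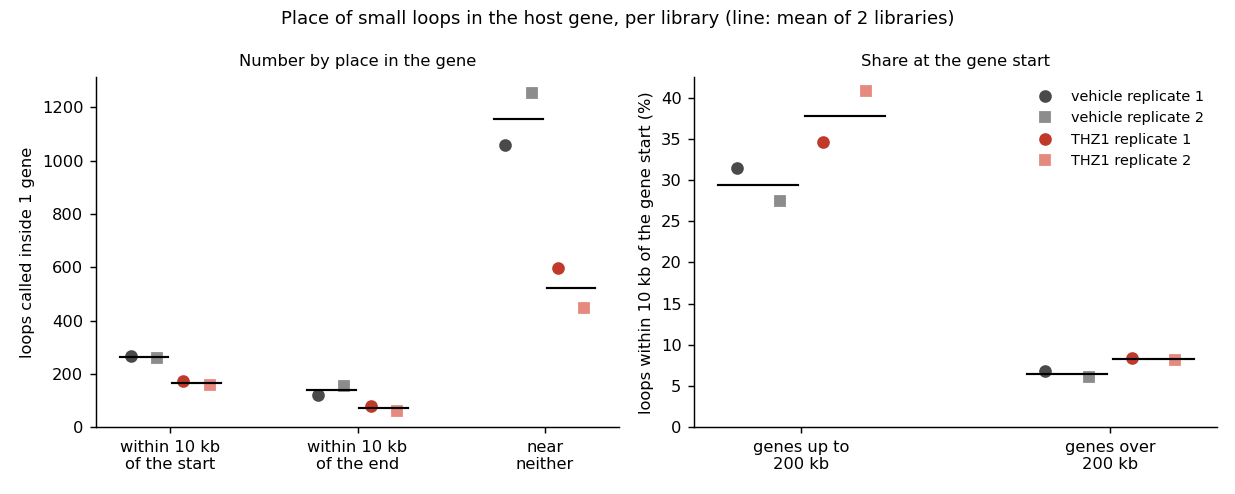
Left, number of small loops (y axis, starting at 0) within 10 kb of the start of the host gene, within 10 kb of its end, and near neither. Right, percentage of small loops within 10 kb of the gene start in genes up to and over 200 kb, with 1 point per library and a line at the mean of 2 libraries in both panels. Both THZ1 points lie below both vehicle points in each class of the left panel and above them in each class of the right panel.

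Small loops inside 1 gene were weaker in the THZ1 lists. Their median strength was 1.90 and 1.87 with vehicle against 1.58 and 1.61 with THZ1, a difference of -0.29 on the log2 scale that exceeded the SD of 0.020 with vehicle and 0.025 with THZ1 (exact permutation p = 0.333). It was -0.11 among loops with 10 kb anchors. In lists cut to the same number of loops it was -0.54, but this cut selects on strength itself. It drops the weakest loops mainly from the longer vehicle lists, so a wider gap is built in. Loops more than 4-fold above the donut expectation made up 40.6% and 40.3% with vehicle against 17.3% and 17.8% with THZ1. The median observed contacts were 26 and 28 with vehicle against 32 and 32 with THZ1, and the median donut expectation was 7.05 and 7.77 with vehicle against 10.7 and 10.2 with THZ1. The THZ1 loops thus had more contacts and a higher expected number at the pixel, in lists that hold only called loops.

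The other loops of 90 kb or less were stronger in each library and differed in the same direction. Their median strength was 1.98 and 1.96 with vehicle against 1.73 and 1.72 with THZ1. Small loops inside 1 gene minus these gave -0.082 and -0.086 with vehicle, and -0.15 and -0.11 after THZ1. Larger loops inside 1 gene had medians of 2.26 and 2.26 with vehicle against 2.07 and 2.02 with THZ1.

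**Figure D4:**
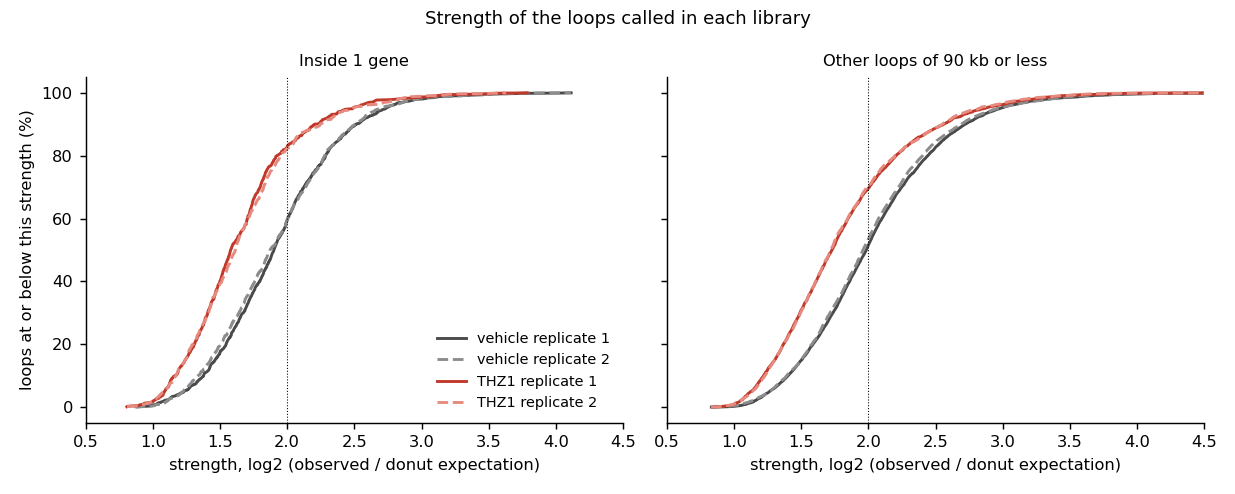
Cumulative percentage of called loops (y axis) at or below a given strength in log2 of observed over donut expectation (x axis), for small loops inside 1 gene (left) and other loops of 90 kb or less (right), with 1 line per library and a dotted line at 4-fold. The 2 libraries of a condition nearly coincide, with medians inside 1 gene of 1.90 and 1.87 for vehicle and 1.58 and 1.61 for THZ1.

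Loops whose anchors were identical in every list allowed strength to be compared loop by loop. There were 2624 such loops, of which 2619 were tested with edgeR's quasi-likelihood test on observed contacts, with the donut expectation as offset. Over all of them, 720 loops (27.5%) were weaker with THZ1 and 1 (0.0382%) was stronger, at a Benjamini-Hochberg adjusted p under 0.05. Of the 122 small loops inside 1 gene, in 114 genes, 45 (36.9%) were weaker and 0 stronger. An unadjusted p under 0.05 by edgeR was reached by 69 of the 122, all weaker, against 1091 of all 2619 tested loops. Among the other small loops, 316 of 801 (39.5%) were weaker, and among larger loops 359 of 1696 (21.2%).

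All 122 had a log2 change below 0, from -1.18 to -0.011, as did 768 of 801 other small loops and 2431 of all 2619. The median was -0.45, against -0.48 for other small loops and -0.41 over all shared loops. The observed contacts of the 122 changed by a median of -0.15 and their donut expectation by 0.33. For other small loops these medians were -0.17 and 0.32. The contacts of the duplicates differed by less than counting noise, with a mean chi-square per loop of 0.782 for vehicle and 0.845 for THZ1 where counting alone gives 1. With the spread held at counting noise or above, a setting added after the data were seen, 34 small loops inside 1 gene and 541 loops in all were called weaker. Leaving out any 1 library, which left 1 in its condition, gave fewer calls. The median log2 change of the 122 then ran from -0.49 to -0.43. DESeq2 gave 7 calls, and edgeR without the expected contacts gave 12.

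The weakened loop with the largest change lay in RFLNA. It spans chr12:124655001-124720000, and its strength was 2.64 and 2.73 with vehicle against 1.32 and 1.70 with THZ1, with 67, 75, 34 and 35 observed contacts. The log2 change was -1.18 ± 0.20 (SE), with an adjusted p of 0.00157 by edgeR. The loop in PDE4B, which breaks down cyclic AMP, at chr1:66735001-66800000, had 85 and 122 contacts with vehicle against 58 and 50 with THZ1. Its strength was 3.38 and 3.43 against 2.33 and 2.46, a log2 change of -1.02 ± 0.17 (SE; adjusted p = 0.00157 by edgeR). At both loops the donut expectations overlapped between conditions.

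In ZNF28, a zinc finger gene, the loop at chr19:53320001-53360000 began 0.853 kb from the gene start and had a strength of 3.64 and 3.50 with vehicle against 2.37 and 2.41 with THZ1. It changed by -1.17 ± 0.24 (SE; adjusted p = 0.00410 by edgeR). The loop in SH3TC2, at chr5:148345001-148385000, had strengths of 2.31 and 2.54 against 1.27 and 1.49 (adjusted p = 0.00249 by edgeR). In CXCL13, a chemokine that attracts B cells, the loop at chr4:78455001-78505000 had strengths of 2.57 and 2.19 against 1.48 and 1.12 (adjusted p = 0.00410 by edgeR). At this loop the donut expectation was 7.23 and 8.33 with vehicle against 12.9 and 12.9 with THZ1, while the contacts were 43 and 38 against 36 and 28. With all annotated transcripts counted, the body of RFLNA was 343 kb long and that of CXCL13 100 kb. Whether these weakened loops, including those in RFLNA and CXCL13, lie inside the canonical transcript was not tested.

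**Figure D5:**
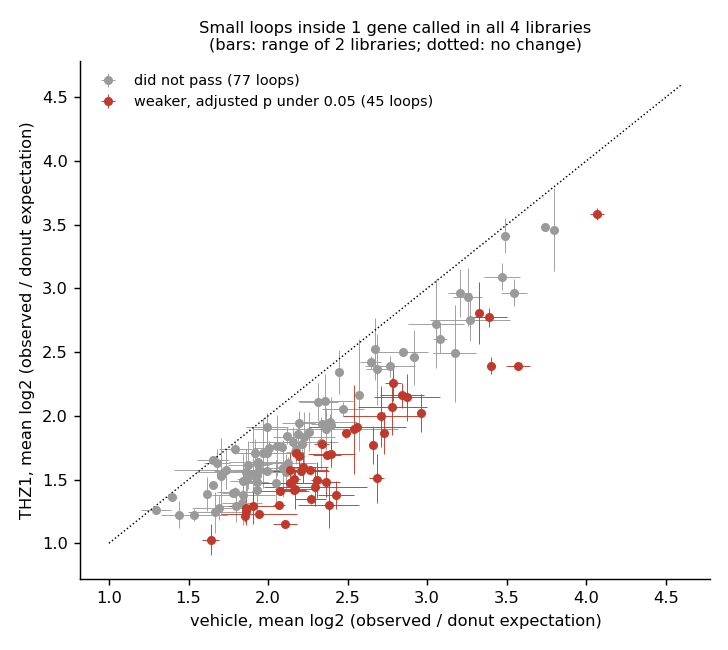
Mean strength with THZ1 (y axis) against mean strength with vehicle (x axis), both in log2 of observed over donut expectation, for the 122 small loops inside 1 gene called with identical anchors in all 4 libraries. Bars span the 2 libraries of a condition, the dotted line marks equal strength, and the 45 loops past the threshold are in red. No point lies above the dotted line.

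Near the gene start, 8 of 29 shared small loops were called weaker (27.6%), and away from it 37 of 93 (39.8%). The difference between these shares was not tested. SAMD4A held 3 shared loops among 3 anchors. The loop that joined its outer anchors, at chr14:55035001-55120000, had a strength of 2.19 and 2.17 with vehicle against 1.76 and 1.65 with THZ1, a log2 change of -0.47 ± 0.17 (SE; adjusted p = 0.0470 by edgeR). The inner loops changed by -0.52 (adjusted p = 0.0532 by edgeR) and -0.32 (adjusted p = 0.190 by edgeR).

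Most small loops inside 1 gene of a vehicle list had no counterpart in a THZ1 list, while most of those of a THZ1 list had one with vehicle. Of the 1427 loops of vehicle replicate 1, 64.0% had a counterpart in vehicle replicate 2, with both anchor midpoints within 10 kb, and 39.0% and 31.3% had one in the first and second THZ1 lists. Of the 831 loops of THZ1 replicate 1, 46.1% had one in THZ1 replicate 2, but 66.9% and 72.4% in the longer vehicle lists. The order followed the length of the list that was searched. Other loops of 90 kb or less showed the same pattern. Of those of vehicle replicate 1, 42.8% and 38.2% had a counterpart in the first and second THZ1 lists. Of those of THZ1 replicate 1, 73.7% and 78.3% had one in the first and second vehicle lists. Each of these shares lay above that inside 1 gene, a difference that was not tested. In all, 310 of the 1427 (21.7%) were found in every list, a share not computed for other small loops.

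Small loops inside 1 gene that were called in both vehicle libraries and neither THZ1 library numbered 339 of 1427 (23.8%), against a background of 16.8% of all loops and 24.0% of all loops of 90 kb or less. Those called in both THZ1 libraries and neither vehicle library numbered 16 of 831 (1.93%), against 6.02% of all loops and 2.77% of those of 90 kb or less. The shares inside 1 gene were near those of all small loops.

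Among vehicle-only loops with identical anchors in both vehicle libraries, the strongest lay in introns of DOCK1, an activator of the GTPase RAC1. It spans chr10:128945001-128995000 and had strengths of 2.83 and 2.96. In PTPRG, a receptor tyrosine phosphatase, the loop at chr3:61560001-61620000 had strengths of 2.66 and 2.88 and 45 and 55 contacts. The next 6 lay in ATP6V1H, a subunit of the vacuolar proton pump, NGEF, a guanine nucleotide exchange factor of neurons, RASAL2, which turns off RAS, PCCA, a subunit of propionyl-CoA carboxylase, KCNQ1 and DSE, an enzyme of dermatan sulfate synthesis, with mean strengths from 2.71 to 2.49. None of these 8 had a CTCF core motif in an anchor.

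With identical anchors, 593 small loops inside 1 gene were called in both vehicle libraries, and 214 of them had no counterpart in a THZ1 list. By the same rule 227 were called in both THZ1 libraries and 5 had no counterpart with vehicle. The strongest THZ1-only loop lay in ZSCAN5A, a zinc finger gene, at chr19:56765001-56845000, with strengths of 2.499 and 2.57, and 1 of its anchors held a CTCF core motif. The loop in CDK6, a kinase of the G1 phase, at chr7:92380001-92465000, began 0.887 kb from the gene start and had strengths of 1.59 and 1.35. That in GNG7, a G protein subunit, had strengths of 1.43 and 1.86, and that in PLXDC1, which spanned nearly the whole gene, 1.32 and 1.42.

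Across the class, a CTCF core motif in either anchor was rarer than in other loops in each of the 4 libraries. This difference was not tested. It did not hold for facing motifs with vehicle, set against other small loops. Neither anchor held a match in 91.5% and 91.7% of small loops inside 1 gene with vehicle and in 89.5% and 90.8% with THZ1. Among other small loops this share was 85.5% and 85.7% with vehicle against 81.1% and 80.9% with THZ1, and among larger loops inside 1 gene, whose anchors can be wider, 75.5% and 76.1% with vehicle against 69.7% and 69.9% with THZ1. Facing motifs were present in 9 and 10 small loops inside 1 gene with vehicle against 10 and 3 with THZ1, or 0.631% and 0.611% against 1.203% and 0.459%. The conditions overlapped (exact permutation p = 1.00). In other small loops the share with facing motifs was 0.618% and 0.591% with vehicle against 1.52% and 1.53% with THZ1, where the conditions did not overlap (exact permutation p = 0.333).

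Loops without a motif in either anchor had a median strength of 1.89 and 1.86 with vehicle against 1.57 and 1.598 with THZ1, and those with facing motifs 2.45 and 2.37 with vehicle against 2.00 and 2.17 with THZ1. In EFCAB5 the loop with facing motifs at chr17:28350001-28425000, inside the canonical transcript, was called in both vehicle libraries and THZ1 replicate 1 with strengths of 4.11, 3.70 and 3.31. Nearly all small loops inside 1 gene were nested in a larger loop of the same library, 94.3% and 96.3% with vehicle against 94.5% and 92.6% with THZ1. The conditions overlapped in this share (exact permutation p = 0.667).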

How the data were processed

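Hi-C libraries were made by the Arima protocol and processed by the authors with Juicer 1.6 on hg19. Per the file headers, loops and contact domains were called with juicer_tools 1.19.02, 1 list per library. The aligner, read filters and calling settings are not given in the sources used here. For each loop, the authors deposited the observed contact count, the expected contacts as a signal from the donut and bottom-left neighborhoods, and q-values against each. The lists hold called loops only and no read totals. The 2 tables of the authors' own comparison, which hold loops unique to 1 condition with pooled values, were not used.

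The members and gene lists were chosen with earlier results of these data known. Gene bodies came from GENCODE release 44 lifted to GRCh37, and the host was the shortest protein-coding gene that held the whole span. Loop size was the distance between anchor starts. For library values, the exact, two-sided permutation test enumerated 6 assignments of libraries to conditions. Shares carry 95% Wilson intervals, which cover counting error only. Reads have no molecular identifiers.

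Loops with identical anchors in all 4 lists were tested with edgeR 4.0.16 on observed counts with log donut expectation as offset. The test was quasi-likelihood, with Benjamini-Hochberg adjustment over 2619 loops. Before it, 5 loops with a donut or bottom-left expectation of 0 were left out. DESeq2 1.42.0 was an alternative. Scripts were tested on simulated data. Strict matches to the 12-base CTCF core motif were searched on both strands of GRCh37. The strongest loops of 1 condition only were ranked among those with identical anchors in both of its libraries. Named were the 10 genes with the most small loops, the 5 shared loops with the largest change, the 8 strongest vehicle-only and 4 strongest THZ1-only loops, genes hosting in 1 condition only, and leading genes of each list. A gene that this rule names is not reported here. Equal replicate numbers are not stated to pair libraries. Python 3.11.15, numpy 2.4.6, pandas 2.3.3, scipy 1.17.1, matplotlib 3.10.9 and R 4.3.3 were used.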

Additional observations from a re-analysis of the deposited data

How the results depend on the processing

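The number of small loops inside 1 gene, the number of host genes, the median strength and the share near the gene start kept their direction under all alternatives run on them. The cut to the same number of loops keeps the strongest of each list, so it is no separate check of median strength. Without 1 library, the log2 ratio of THZ1 to vehicle ran from -1.23 to -0.88 for loops and from -0.92 to -0.66 for host genes, and the difference in median strength from -0.31 to -0.27, in the share near the start from 3.83 to 7.12 percentage points, in median gene length from -15.0 to -3.15 kb and in the share in genes over 200 kb from -3.51 to -1.003 points. The small difference in the share of small loops that lie inside 1 gene (-0.71 points) ran from -1.43 to 0.0032 without 1 library and turned to 0.092 for loops of at most 50 kb and to 0.36 with the same number of loops per list. The share with facing CTCF motifs (0.21 points) ran from -0.16 to 0.58 without 1 library and turned to -0.30 with 10 kb anchors only. The share in genes over 200 kb (-2.26 points) turned to 2.04 with 10 kb anchors only and to 0.19 with canonical transcripts, and the median gene length (-9.08 kb) turned to 2.13 kb with canonical transcripts. The cause of these turns was not tested.

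Leaving out a library drops 1 requirement of the definition, so the counts of vehicle-only and THZ1-only loops could only rise. Vehicle-only loops ran from 421 to 914 without 1 library. THZ1-only loops ran from 37 to 162 without 1 library, and numbered 3 with matching within 20 kb and 46 with identical anchors. In the test of shared loops, edgeR without the expected contacts gave 12 weaker small loops inside 1 gene, 109 over all loops and a median change of -0.14, and DESeq2, which gave no adjusted p for 2234 loops, called 7 and 56. Without 1 library, calls ran from 0 to 20 inside 1 gene and from 0 to 227 over all loops, and the median from -0.49 to -0.43. With the replicate block, 49 were called inside 1 gene and 769 over all loops, with a median of -0.45, and deviations of libraries with the same number correlated at 0.017 over shared loops, so the numbers were not taken as pairs. With the spread held at counting noise or above, added after the data were seen, 34 were called inside 1 gene. Keeping loops with only a bottom-left expectation of 0, also added, gave 2623 loops tested, with 41 called inside 1 gene and 648 over all loops. The crossed block and a base list of replicate 2, also added, moved no count by more than 1.5 times. Contacts per loop, with medians from 26 to 32, limit what single loops can show.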
